A study of Mus musculus with 4 samples.

Results

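Type I interferon response genes are genes whose transcription is raised by interferon-alpha and interferon-beta, and 39 of them were followed here across 4 populations of mouse CD4 T cells. A member was any of the 39 listed symbols that the platform's annotation gives to a probe set of its own, and each gene was read from its probe set with the highest mean log2 signal over the 4 arrays. This gave 37 measured members among 18193 measured genes, while Isg15 and Ifi44 have no probe set of their own in the annotation and were not analysed here as single genes. Of the 37, 35 lay above the floor of 12.1 on at least 1 array, as did 11769 of all genes, and 27 lay above it on all 4. That floor, the pooled median of the arrays' signals with control probe sets left out, replaced any lower value before any ratio was taken.

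The study asked how IL-17-producing T cells of different origin compare. All cells came from spleen and lymph nodes of C57BL/6 mice aged 8 to 10 weeks, were cultured, and were then sorted on an IL-17 GFP reporter and on Foxp3, the factor that defines regulatory T cells. The exFoxp3Th17 population grew under Th17 conditions from CD4+ T cells that expressed Foxp3 and was sorted as IL-17+ Foxp3-, and the Th17 population grew from naive CD4+ T cells under the same named conditions and had the same gate. The Treg population grew from Foxp3+ CD4+ T cells with IL-2 and was sorted as Foxp3+ IL-17-, and the Th0 population grew from naive CD4+ T cells under Th0 conditions and was sorted as negative for both. Each population was measured on 1 Affymetrix array from 1 µg of total RNA, and the labels give neither the number of animals pooled nor the length of culture. No spread between replicates exists, so every difference is between 2 arrays and no test between populations was possible. A gene was called higher or lower where 2 arrays differed by 2-fold or more, which is 1 on the log2 scale.

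Type I interferons bind a receptor made of IFNAR1 and IFNAR2, whose kinases TYK2 and JAK1 phosphorylate STAT proteins. STAT2 joins IRF9 in a complex that binds the interferon-stimulated response element in the promoters of antiviral genes. Many of the induced proteins sense viral RNA, degrade RNA or block its translation, and others such as USP18 shut the signal off again. In mouse CD4 T cells type I interferon is known to restrain the development of IL-17-producing cells.

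The response element is seen in the promoters of several members, and the 6 windows below are shown because they belong to the members with the largest negative log2 ratio in Th17 against Th0 among those that hold its core. The core searched was GAAA, any 2 bases, then GAAA, on both strands, and capitals mark it. Each window runs from 250 bases before to 50 bases after the gene's start in RefSeq annotation of build GRCm38.p6, printed 5′ to 3′ along the gene. The Ifit1 window is chr19:34640639-34640938 on the plus strand, and its 2 cores, both on the opposite strand, begin 104 and 85 bases before the start. The Ifit3 window is chr19:34583279-34583578 on the plus strand, with 2 cores on the opposite strand that begin 156 and 122 bases before the start. The Rsad2 window is chr12:26456403-26456702 on the minus strand, with 1 core on the opposite strand 120 bases before the start. The Oas3 window is chr5:120777610-120777909 on the minus strand, with 1 core in the printed orientation 75 bases before the start. The Ifih1 window is chr2:62646206-62646505 on the minus strand, and its core, in the printed orientation, begins 33 bases after the start. The Lgals9 window is chr11:78984875-78985174 on the minus strand, with cores on the opposite strand 55 bases before and 16 bases after the start.
Ifit1: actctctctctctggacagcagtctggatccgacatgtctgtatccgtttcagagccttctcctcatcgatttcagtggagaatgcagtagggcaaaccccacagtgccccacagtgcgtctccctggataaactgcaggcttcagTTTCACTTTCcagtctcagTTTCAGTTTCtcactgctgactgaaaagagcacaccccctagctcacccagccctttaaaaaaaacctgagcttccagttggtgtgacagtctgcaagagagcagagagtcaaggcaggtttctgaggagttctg
Ifit3: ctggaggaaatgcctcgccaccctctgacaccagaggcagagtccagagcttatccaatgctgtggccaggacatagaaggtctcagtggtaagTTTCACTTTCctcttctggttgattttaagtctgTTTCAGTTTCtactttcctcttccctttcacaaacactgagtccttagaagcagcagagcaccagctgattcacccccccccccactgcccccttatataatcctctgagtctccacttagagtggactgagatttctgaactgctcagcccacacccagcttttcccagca
Rsad2: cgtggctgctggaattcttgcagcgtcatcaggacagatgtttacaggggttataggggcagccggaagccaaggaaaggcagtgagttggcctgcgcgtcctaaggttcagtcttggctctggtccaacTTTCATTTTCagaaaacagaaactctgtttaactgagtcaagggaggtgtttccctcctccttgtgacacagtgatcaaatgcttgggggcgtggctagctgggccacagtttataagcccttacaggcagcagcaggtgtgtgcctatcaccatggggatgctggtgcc
Oas3: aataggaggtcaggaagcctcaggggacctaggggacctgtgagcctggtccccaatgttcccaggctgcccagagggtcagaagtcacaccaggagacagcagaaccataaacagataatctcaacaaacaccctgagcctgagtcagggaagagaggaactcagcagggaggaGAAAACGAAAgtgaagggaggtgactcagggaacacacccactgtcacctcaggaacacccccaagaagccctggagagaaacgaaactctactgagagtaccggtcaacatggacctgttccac
Ifih1: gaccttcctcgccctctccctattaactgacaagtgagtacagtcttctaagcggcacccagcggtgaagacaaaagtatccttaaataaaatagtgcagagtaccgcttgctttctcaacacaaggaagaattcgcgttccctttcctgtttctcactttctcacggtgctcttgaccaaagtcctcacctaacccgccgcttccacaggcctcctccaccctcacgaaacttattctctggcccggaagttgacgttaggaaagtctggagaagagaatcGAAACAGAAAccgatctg
Lgals9: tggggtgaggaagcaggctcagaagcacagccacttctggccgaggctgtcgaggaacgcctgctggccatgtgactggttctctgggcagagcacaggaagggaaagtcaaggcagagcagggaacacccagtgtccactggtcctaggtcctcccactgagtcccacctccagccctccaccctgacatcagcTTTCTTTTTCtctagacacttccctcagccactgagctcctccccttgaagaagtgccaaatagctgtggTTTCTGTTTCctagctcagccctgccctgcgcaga

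A promoter window was listed for 29 of the 39 members, and 11 of these 29 (37.9%) held the core, against 3.99% of the 27025 genes with a window. The gamma-activated site, a shorter palindromic motif of interferon-gamma responses, was found on either strand in 9 of the 29 members (31.0%), against 9.55% of all genes, and overlapped the core in 1 member. The windows of Dhx58, Zbp1, Oas2, Mx1, Mx2, Usp18, Parp9, Parp14, Rtp4 and Ly6e were not used here. A match of these letters is a description of the window and shows no binding.

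The members were highest in the cells that had not been cultured under Th17 conditions. Of the 35 members above the floor on some array, 17 had their highest signal in Th0 and 15 in Treg, which is 48.6% and 42.9% of them, against 27.6% and 21.1% of the 11769 genes above the floor. The exFoxp3Th17 array was the highest for 3 members (Ifih1, Mx1 and Herc6), or 8.57% against 32.8% of genes, and the Th17 array for none, against 18.4% of genes. The lowest signal can be ordered only where all 4 arrays lie above the floor, which held for 27 members and 9220 genes. Of these members, 14 were lowest in Th17 (51.9%, against 23.4% of genes). In exFoxp3Th17 7 were lowest (25.9%, against 28.5% of genes), so that array was not lowest more often than over all genes. The others were lowest in Treg (2, or 7.41%, against 25.6%) or in Th0 (4, or 14.8%, against 22.5%). The arrays hold bulk RNA, so fewer responding cells and less RNA per cell cannot be told apart.

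**Figure D1:**
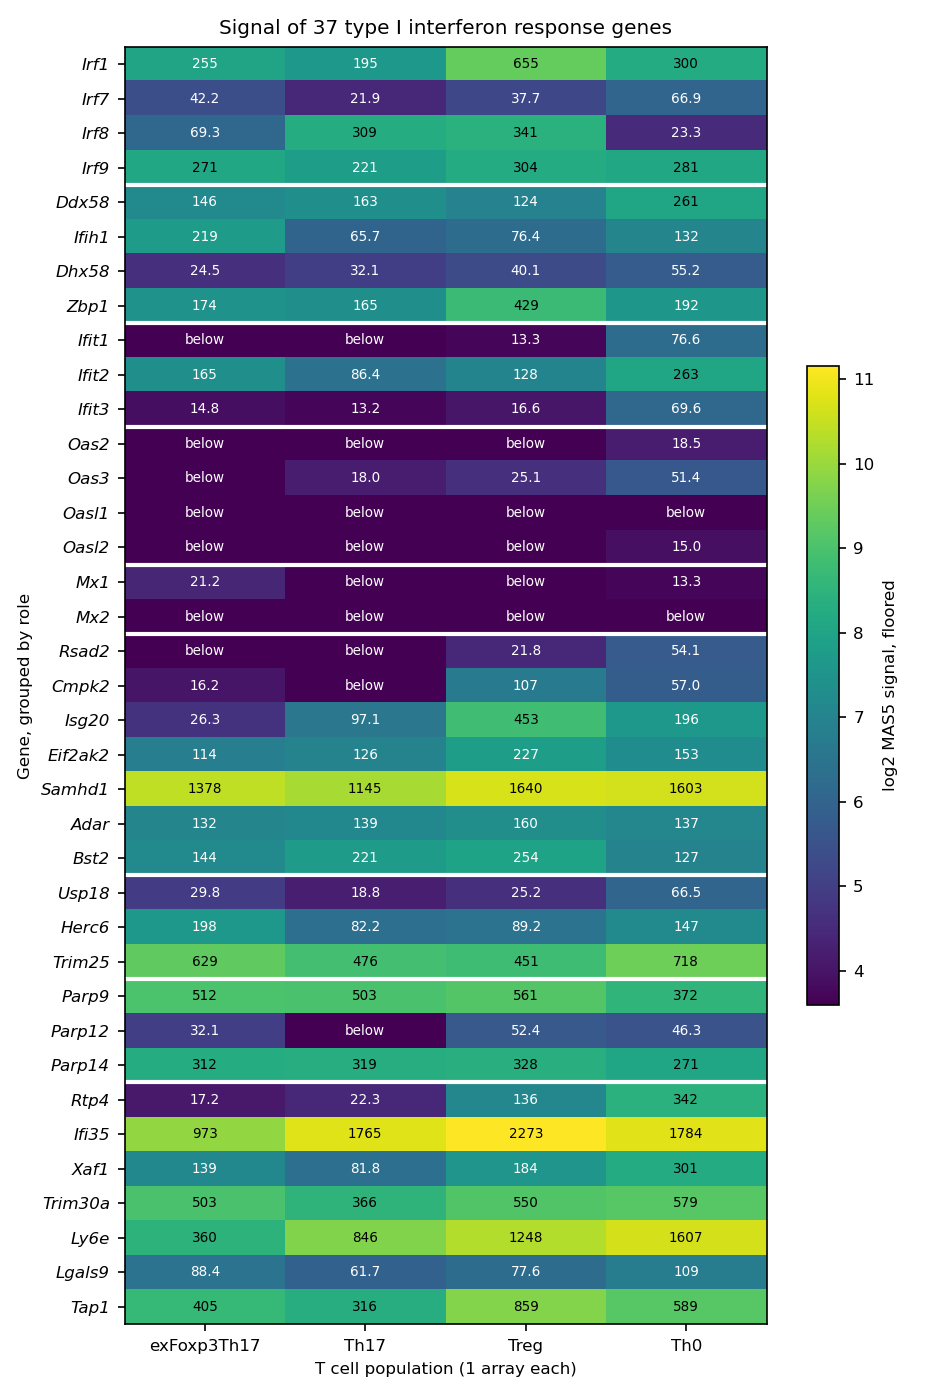
Signal of each of the 37 measured members on the 4 arrays (columns, 1 array per population), with genes in rows grouped by role and colour giving the log2 signal. The printed numbers are MAS5 signals, "below" marks values under the floor of 12.1, and the members with the brightest cells are Samhd1, Ifi35 and Ly6e.

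Several roles had members on both sides, and the Ifit and the Oas genes above the floor each had a common highest array. The Parp genes were all highest in Treg, but by small differences. Parp14 had 328 in Treg and 319 in Th17, and its other probe set was highest in Th0. The 17 highest in Th0 included all 3 Ifit genes, the Oas genes above the floor (Oas2, Oas3 and Oasl2), Irf7, Usp18, Rtp4, Xaf1, Ly6e and the RNA sensors Ddx58 and Dhx58. Their median log2 ratio was -1.51 in Th17 against Th0 and -0.83 in Treg against Th0. The 15 highest in Treg included Irf1, Irf8, Irf9, Zbp1, Isg20, Cmpk2, Tap1, Ifi35 and the 3 Parp genes, and their median log2 ratio was -0.99 in exFoxp3Th17 against Treg and 0.57 in Treg against Th0. Since these medians follow in part from choosing genes by their highest array, they describe the split and support nothing further.

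Among all members, Th17 against Th0 had the most calls in one direction. In this comparison of Th17 conditions with Th0 conditions in cells of naive origin, 13 of 37 members (35.1%) were lower in Th17, where 4.45% of all genes were. A single member, Irf8, was higher (2.7%), where 5.32% of all genes were. The members' median log2 ratio was -0.68, against 0 over all genes, and 30 of the 37 ratios lay below 0. Among the 32 members whose mean log2 signal lay above the floor, the median was -0.83, against -0.06 over 10178 such genes, and 13 were lower, against 7.68% of those genes.

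Treg against Th0 set the regulatory population against unpolarised cells, and both sides held calls. In Treg 8 members (21.6%) were lower, against 3.2% of all genes, and 4 members (10.8%) were higher, against 3.59% of all genes. The members' median log2 ratio was -0.14. exFoxp3Th17 against Treg set cells of Foxp3+ origin under Th17 conditions against those kept with IL-2: 10 members (27.0%) were lower in exFoxp3Th17, against 6.43% of all genes, and 2 (5.41%) were higher, against 7.3% of all genes, with a median of -0.17. exFoxp3Th17 against Th17 set cells of different origin under the same named conditions, and 3 members were higher and 3 lower (8.11% each), against 4.84% and 4.71% of all genes, with a median of 0.03. Among the 32 members with a mean log2 signal above the floor, the counts in these comparisons were the same. The 10178 such genes had larger shares: 5.51% lower and 5.87% higher in Treg against Th0, and 10.9% and 12.3% in exFoxp3Th17 against Treg. In exFoxp3Th17 against Th17 they were 7.88% lower and 8.02% higher, so 3 of 32 members each way lay near those shares. Of the 37 members, 21 were called in at least 1 of the 4 comparisons and 16 in none. The matching share over all genes is not given here, so whether 21 is many cannot be read from it. Each array serves in 2 of the comparisons, so their counts are not independent of each other.

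**Figure D2:**
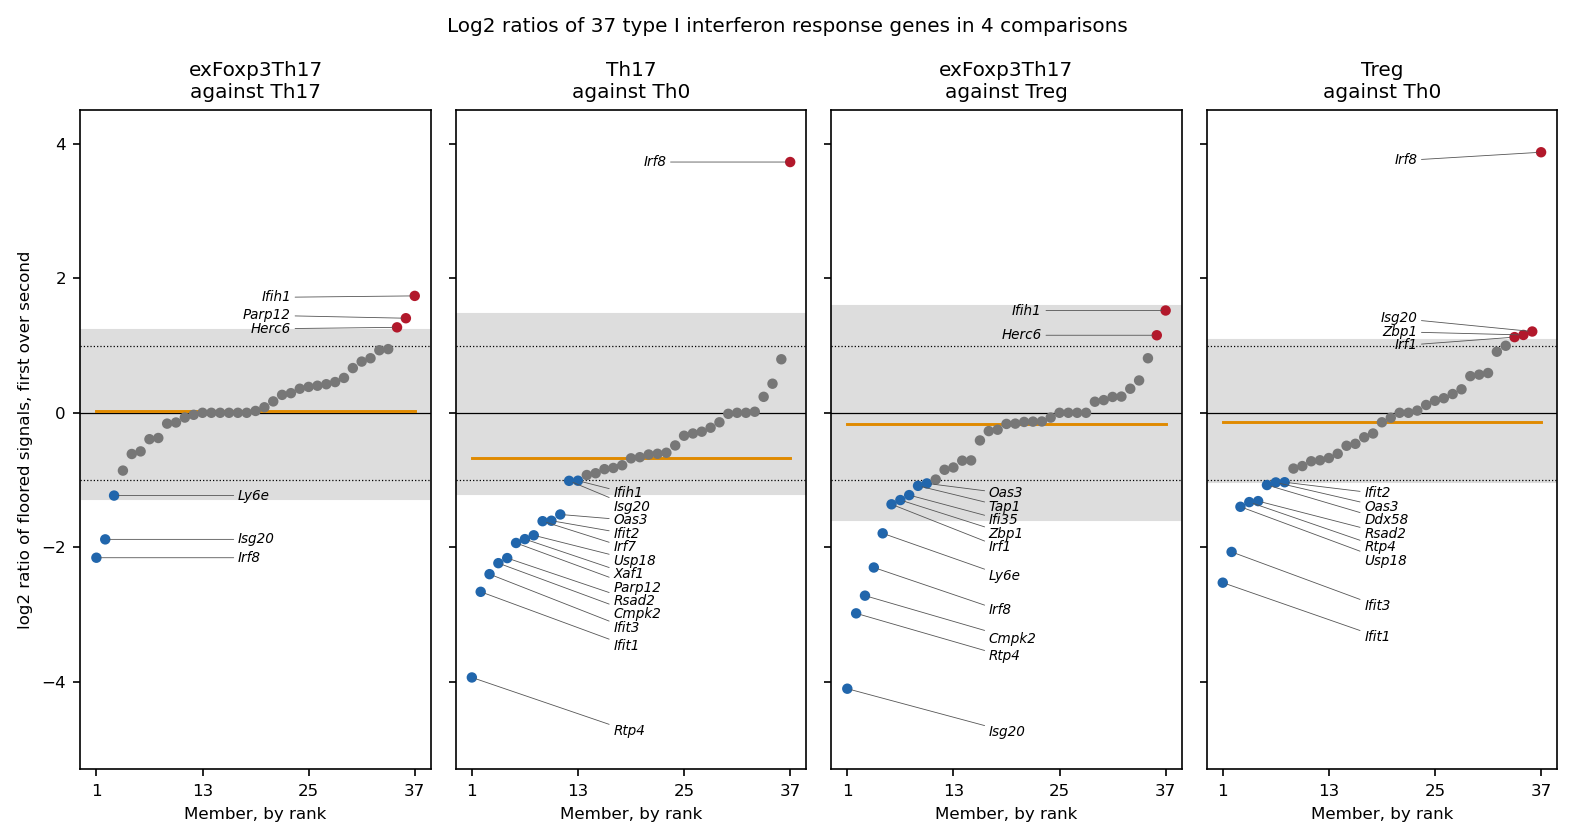
Log2 ratio of floored signals (vertical axis, first population over second) of the 37 members ranked from lowest to highest within each of the 4 comparisons, with calls named (red higher, blue lower) and dotted lines at 2-fold. The orange line is the members' median and the grey band spans the middle 90% of the 10178 genes with a mean log2 signal above the floor; the orange line lies below 0 in Th17 against Th0 (-0.68).

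Irf8, a factor of the IRF family best known from myeloid and dendritic cell development, had the largest range of the transcription factors. Its signal was 69.3 in exFoxp3Th17, 309 in Th17, 341 in Treg and 23.3 in Th0. It was called in all 4 comparisons: 4.46-fold lower in exFoxp3Th17 than in Th17, 13.3-fold higher in Th17 than in Th0, 4.93-fold lower in exFoxp3Th17 than in Treg, and 14.7-fold higher in Treg than in Th0. Th17 and Treg were thus high, Th0 low and exFoxp3Th17 between them. Its other probe set gave log2 ratios of -1.50, 3.19, -1.60 and 3.30 in the same order.

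Irf1, a factor induced by both types of interferon, had 255 in exFoxp3Th17, 195 in Th17, 655 in Treg and 300.3 in Th0. Treg stood above the other arrays, with Irf1 2.57-fold lower in exFoxp3Th17 than in Treg and 2.18-fold higher in Treg than in Th0. Irf7, which amplifies the response by driving interferon-alpha genes, had 42.2 in exFoxp3Th17, 21.9 in Th17, 37.7 in Treg and 66.9 in Th0. It was 3.06-fold lower in Th17 than in Th0, and within 2-fold in the other comparisons. Irf9, the DNA-binding subunit of the complex that recognises the response element, ranged only from 221 to 304 over the 4 arrays and was called in no comparison.

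The 3 Ifit genes, whose products bind viral RNA and block its translation, were the group with every member called lower in the same comparisons. Ifit1 had 10.3 in exFoxp3Th17, 6.23 in Th17, 13.3 in Treg and 76.6 in Th0. Ifit3 had 14.8 in exFoxp3Th17, 13.2 in Th17, 16.6 in Treg and 69.6 in Th0. Th0 thus stood alone for both genes, with the other arrays at or near the floor. Ifit1 was at least 6.33-fold lower in Th17 than in Th0 and 5.76-fold lower in Treg than in Th0, and Ifit3 5.28-fold and 4.2-fold lower. Ifit2 was brighter throughout, with 165 in exFoxp3Th17, 86.4 in Th17, 128 in Treg and 263 in Th0. It was 3.04-fold lower in Th17 than in Th0 and 2.05-fold lower in Treg than in Th0. No Ifit gene was called in exFoxp3Th17 against Th17 or against Treg. The Ifit1 and Ifit3 windows printed above hold 2 cores each.

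Among the nucleic acid sensors, the RNA helicase Ifih1 (MDA5) stood out by its level in exFoxp3Th17. Its signal was 219 in exFoxp3Th17, 65.7 in Th17, 76.4 in Treg and 132 in Th0. It was 3.34-fold higher in exFoxp3Th17 than in Th17 and 2.87-fold higher in exFoxp3Th17 than in Treg, and 2.01-fold lower in Th17 than in Th0. Ddx58, which encodes the RNA sensor RIG-I, had 146 in exFoxp3Th17, 163 in Th17, 124 in Treg and 261 in Th0, and was 2.11-fold lower in Treg than in Th0. Its 2 other probe sets had log2 ratios of -1.10 and -1.03 there, and of -1.61 and -1.03 in Th17 against Th0, where the chosen one was at -0.68. Zbp1, a sensor of left-handed nucleic acids that triggers cell death, had 174 in exFoxp3Th17, 165 in Th17, 429 in Treg and 192 in Th0. Treg was again the high array, and Zbp1 was 2.46-fold lower in exFoxp3Th17 than in Treg and 2.23-fold higher in Treg than in Th0. Dhx58 (LGP2), a relative of both helicases, ranged from 24.5 in exFoxp3Th17 to 55.2 in Th0 and was called in no comparison.

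The Oas enzymes make the second messenger that activates RNase L, and most of them were dim. Oas3 had 1.99 in exFoxp3Th17, 18.0 in Th17, 25.1 in Treg and 51.4 in Th0. It was 2.85-fold lower in Th17 than in Th0, at least 2.07-fold lower in exFoxp3Th17 than in Treg, and 2.05-fold lower in Treg than in Th0. Oas2 and Oasl2 lay above the floor only in Th0, at 18.5 and 15.0, and Oasl1 on no array, with at most 11.7. Of the Mx genes, which encode dynamin-like antiviral GTPases and are defective in C57BL/6 mice, Mx1 was above the floor in exFoxp3Th17 (21.2) and Th0 (13.3), and Mx2 on no array. No Mx gene was called.

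Isg20, an exonuclease that degrades RNA, was called in all 4 comparisons. It had 26.3 in exFoxp3Th17, 97.1 in Th17, 453 in Treg and 196 in Th0. It was 3.69-fold lower in exFoxp3Th17 than in Th17, 2.02-fold lower in Th17 than in Th0, 17.2-fold lower in exFoxp3Th17 than in Treg and 2.31-fold higher in Treg than in Th0. Both populations from Th17 conditions were thus lower than both others. Cmpk2, a mitochondrial nucleotide kinase, had 16.2 in exFoxp3Th17, 6.19 in Th17, 107 in Treg and 57.0 in Th0, and was at least 4.71-fold lower in Th17 than in Th0 and 6.59-fold lower in exFoxp3Th17 than in Treg. Rsad2 (viperin), which makes a chain-terminating nucleotide and lies beside Cmpk2 in the genome, had 6.80 in exFoxp3Th17, 7.96 in Th17, 21.8 in Treg and 54.1 in Th0. It was at least 4.47-fold lower in Th17 than in Th0 and 2.49-fold lower in Treg than in Th0.

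The remaining antiviral effectors varied less. The RNA-dependent kinase Eif2ak2 (PKR) ranged from 114 in exFoxp3Th17 to 227 in Treg, with a log2 ratio of -0.99 between these arrays. Bst2 (tetherin), which holds budding virus at the cell surface, ranged from 127 in Th0 to 254 in Treg. Both other Eif2ak2 probe sets passed 2-fold in exFoxp3Th17 against Treg, at log2 ratios of -1.11 and -1.29. The chosen probe sets of the deoxynucleotide hydrolase Samhd1 (1145 to 1640.0) and the RNA-editing enzyme Adar (132 to 159.8) were within 2-fold over all arrays, and none of these 4 genes was called. Their other probe sets gave larger ratios: the 4 of Samhd1 were at -0.98, -0.98, -1.04 and -0.89 in Th17 against Th0. For Adar the 2 others disagreed, with 1 at -1.10 in exFoxp3Th17 against Treg, where the other was at 0.50, and the other at -1.03 in Th17 against Th0 and -1.12 in Treg against Th0.

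In the ISG15 system, which attaches a ubiquitin-like protein to others, the members differed from each other. Usp18, which removes ISG15 and silences the interferon receptor, had 29.8 in exFoxp3Th17, 18.8 in Th17, 25.2 in Treg and 66.5 in Th0. It was 3.54-fold lower in Th17 than in Th0 and 2.64-fold lower in Treg than in Th0. Herc6, the mouse ligase for ISG15, had 198 in exFoxp3Th17, 82.2 in Th17, 89.2 in Treg and 147 in Th0, and was 2.41-fold higher in exFoxp3Th17 than in Th17 and 2.22-fold higher in exFoxp3Th17 than in Treg. Of its 3 other probe sets, all were higher in exFoxp3Th17 than in Th17 (log2 0.51, 1.01 and 0.97), while against Treg 1 of them went the other way (-0.22, 0.67 and 1.05). Trim25, a ubiquitin ligase that activates RIG-I, ranged from 451 in Treg to 718 in Th0 and was not called.

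Of the Parp genes, Parp12, a mono-ADP-ribosyltransferase, was called. It had 32.1 in exFoxp3Th17, 6.33 in Th17, 52.4 in Treg and 46.3 in Th0, so that Th17 alone lay under the floor. It was at least 2.65-fold higher in exFoxp3Th17 than in Th17 and at least 3.83-fold lower in Th17 than in Th0. Parp9 (372 to 561) and Parp14 (271 to 328) were close on all arrays and were called nowhere.

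Rtp4, a chaperone of receptor transport that is strongly induced by interferon, had the lowest ratio of any member in Th17 against Th0. Its signal was 17.2 in exFoxp3Th17, 22.3 in Th17, 136 in Treg and 342 in Th0. It was 15.3-fold lower in Th17 than in Th0, 7.91-fold lower in exFoxp3Th17 than in Treg, and 2.51-fold lower in Treg than in Th0. Both populations from Th17 conditions lay close to the floor and both others well above it.

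Ly6e, a membrane-anchored protein that limits entry of some viruses, had 360.3 in exFoxp3Th17, 846 in Th17, 1248 in Treg and 1607 in Th0. It was 2.35-fold lower in exFoxp3Th17 than in Th17 and 3.47-fold lower in exFoxp3Th17 than in Treg, whereas its other probe set above the floor gave log2 ratios of only -0.27 and -0.67. That other probe set passed 2-fold in Th17 against Th0 (-1.73) and in Treg against Th0 (-1.32), where the chosen one did not. Xaf1, a pro-apoptotic zinc finger protein, had 139 in exFoxp3Th17, 81.8 in Th17, 184 in Treg and 301 in Th0, and was 3.68-fold lower in Th17 than in Th0. Ifi35 had 973 in exFoxp3Th17, 1765 in Th17, 2273 in Treg and 1784 in Th0, and was 2.34-fold lower in exFoxp3Th17 than in Treg. Tap1, a subunit of the transporter that loads peptides onto MHC class I, had 405 in exFoxp3Th17, 316 in Th17, 859 in Treg and 589 in Th0, and was 2.12-fold lower in exFoxp3Th17 than in Treg. For Ifi35 and Tap1, Treg was the highest array. Trim30a (366 to 579) and the galectin Lgals9 (61.7 to 109) were called in no comparison.

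The comparisons Th17 against Th0 and exFoxp3Th17 against Treg share no array, and each sets Th17 conditions against another culture within cells of 1 origin. Rtp4, Cmpk2, Isg20 and Oas3 were lower in both, which is 12.5% of the 32 members with a mean log2 signal above the floor, against 1.92% of the 10178 genes chosen the same way. The size of this overlap depends on how many were lower in each comparison. In Th17 against Th0 these were 13 of the 32 members and 782 of the 10178 genes. In exFoxp3Th17 against Treg they were 10 members and 1111 genes. Whether the members share calls beyond these numbers was not tested. No member was higher in both, where 285 of the 10178 genes were. Ratios lay below 0 in both comparisons for 19 of the 32 members and for 2570 of the 10178 genes. The sizes ran in no common order, with Pearson's r of 0.006 across the 32 members and 0.15 across the 10178 genes. Genes within 1 pair of arrays are not independent, and these values are descriptions. Rtp4, Isg20 and Cmpk2 also met a stricter condition, with the higher of the exFoxp3Th17 and Th17 arrays at least 2-fold under the lower of the Treg and Th0 arrays. That makes 3 of 37 members (8.11%), against 0.621% of all genes, and no member was higher by the same measure, against 1.13% of all genes. Among the 32 members with a mean log2 signal above the floor it was also 3, against 1.08% of the 10178 such genes. No such member was higher, against 1.96% of those genes. The other 6 members lower in exFoxp3Th17 than in Treg, without being called lower in Th17 than in Th0, were Irf1, Irf8, Zbp1, Ifi35, Ly6e and Tap1.

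**Figure D3:**
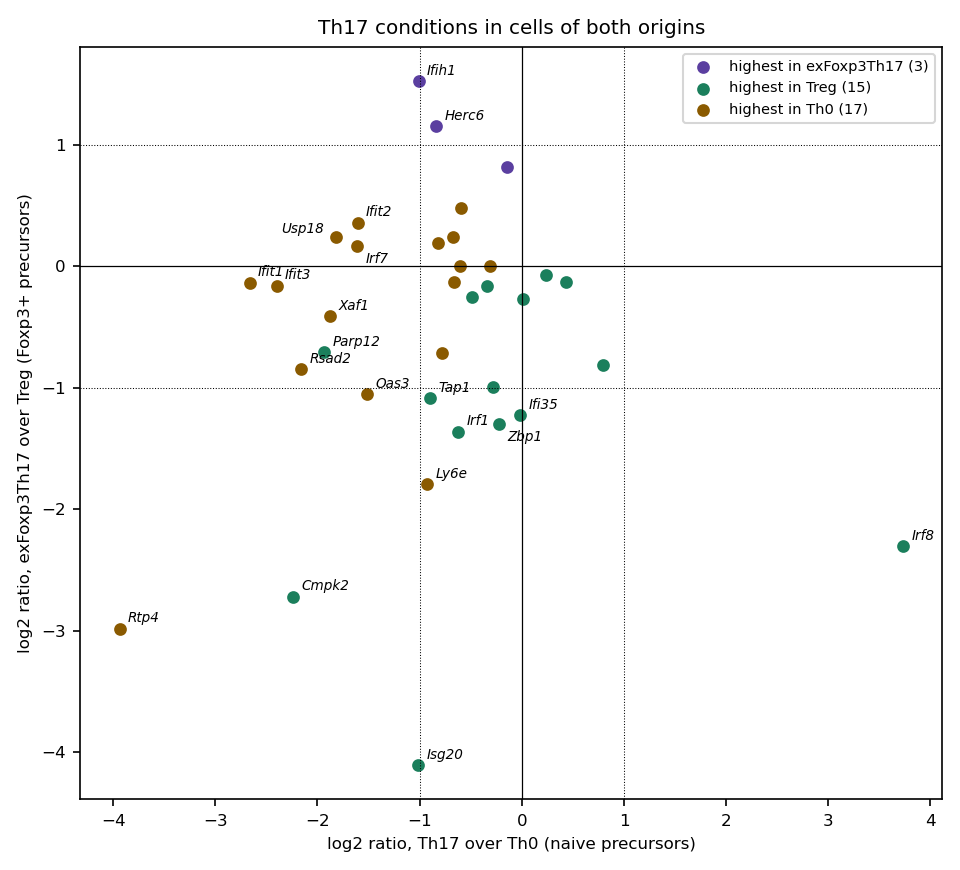
Log2 ratio of the 35 members above the floor in Th17 over Th0 (horizontal axis, naive precursors) against that in exFoxp3Th17 over Treg (vertical axis, Foxp3+ precursors), coloured by the array with the highest signal, with dotted lines at 2-fold and members named where either ratio passes it. Rtp4, Cmpk2, Isg20 and Oas3 lie beyond 2-fold below 0 on both axes, Irf8 lies far to the right and below, and Ifih1 lies above and to the left.

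The members with and without the core were also set beside the split by highest array. Of the 27 measured members with a window, 10 held the core and 17 did not. Of the 10, 7 had their highest array in Th0, 2 in Treg and 1 in exFoxp3Th17, and 5 of them were lower in Treg than in Th0, with a median log2 ratio of -0.91 there. Of the 17 without it, 5 were highest in Th0, 10 in Treg, 1 in exFoxp3Th17 and Oasl1 under the floor throughout, and 1 was lower in Treg than in Th0, with a median of 0.12. In Th17 against Th0 the medians were closer, -0.92 with the core and -0.62 without, and 5 of 10 and 6 of 17 were lower. Over all genes, 3.2% were lower in Treg than in Th0 and 4.45% in Th17 than in Th0. Some highest arrays rest on small differences. Samhd1 and Adar, both without the core, had 1640.0 and 159.8 in Treg and 1603 and 137 in Th0. All their other probe sets were highest in Th0. Few genes stand on each side, and no test was made.

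Other genes of the pathway were read from lists covering 100 genes, 86 of which were measured. Of the 8 measured interferon genes, the 7 of type I lay under the floor on all 4 arrays. Ifnb1, which encodes interferon-beta, had 8.35 in exFoxp3Th17, 8.48 in Th17, 10.7 in Treg and 5.29 in Th0. Ifng, which encodes interferon-gamma, was above the floor in Treg alone (25.7). The receptor chain Ifnar1 had 224 in exFoxp3Th17, 144 in Th17, 234 in Treg and 298 in Th0 and was 2.07-fold lower in Th17 than in Th0, while Ifnar2, Jak1 and Tyk2 were called in no comparison. Stat2 was nearly level, between 26.6 and 30.7.

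The genes that serve interferon-gamma differed more. Ifngr1, its ligand-binding chain, had 628 in exFoxp3Th17, 357 in Th17, 1529 in Treg and 589.9 in Th0. Ifngr2, its signalling chain, had 191 in exFoxp3Th17, 216 in Th17, 39.7 in Treg and 57.4 in Th0, and was 4.8-fold higher in exFoxp3Th17 than in Treg and 3.76-fold higher in Th17 than in Th0. The kinase Jak2, which also serves many cytokine receptors, was 4.29-fold higher in exFoxp3Th17 than in Treg and 2.78-fold higher in Th17 than in Th0. Both genes were therefore high on both arrays from Th17 conditions. The feedback inhibitor Socs1 had 32.6 in exFoxp3Th17, 81.4 in Th17, 118 in Treg and 57.3 in Th0, and Socs3 had 2514 in exFoxp3Th17, 2121 in Th17, 2461 in Treg and 663 in Th0. Socs1 was 2.5-fold lower in exFoxp3Th17 than in Th17, and Socs3 was 3.2-fold higher in Th17 than in Th0.

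**Figure D4:**
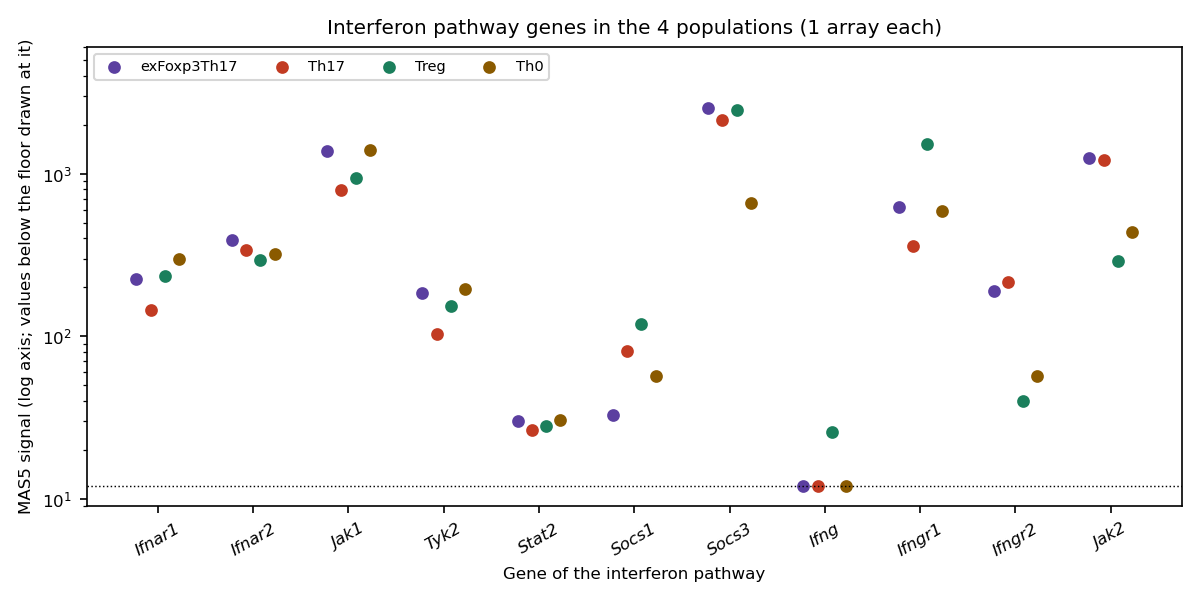
Signal (vertical log axis, MAS5 units, values under the floor drawn at the dotted line) of 11 receptor, kinase, STAT, feedback and ligand genes of interferon signalling on the 4 arrays, 1 point per population. Ifngr2 and Jak2 are high in exFoxp3Th17 and Th17, Ifngr1 and Ifng are highest in Treg, and Stat2 is level.

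Upstream, the calls among 10 measured adaptors and kinases of nucleic acid sensing all fell on Cgas and Ikbke. In Th17 against Th0, 2 were lower (20.0%, against 4.45% of all genes). In exFoxp3Th17 against Th17, 1 was higher and 1 lower (10.0% each, against 4.84% and 4.71%). In exFoxp3Th17 against Treg, 1 was higher and 1 lower (against 7.3% and 6.43%). In Treg against Th0, 1 was lower (against 3.2%). The DNA sensor Cgas had 16.8 in exFoxp3Th17, 60.9 in Th17, 118 in Treg and 131 in Th0. It was 7.02-fold lower in exFoxp3Th17 than in Treg, 3.62-fold lower in exFoxp3Th17 than in Th17 and 2.14-fold lower in Th17 than in Th0. The kinase Ikbke, which activates IRF3 and IRF7, had 462 in exFoxp3Th17, 188 in Th17, 189 in Treg and 505 in Th0. It was 2.45-fold higher in exFoxp3Th17 than in Th17, and by the same fold higher than in Treg. Against Th0 it was 2.68-fold lower in Th17 and 2.67-fold lower in Treg. The adaptors Mavs, Sting1, Myd88 and Ticam1 and the kinase Tbk1 were called in no comparison.

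Other interferon-induced genes outside the members, 47 measured of 51 listed, had 14 lower (29.8%, against 4.45% of all genes) and 2 higher (4.26%, against 5.32%) in Th17 than in Th0, with a median log2 ratio of -0.67, against 0 over all genes. In exFoxp3Th17 against Th17 this list had 13 higher (27.7%, against 4.84% of all genes) and 3 lower (6.38%, against 4.71%), with a median of 0.48. The difference between this list and the members was not tested. The 13 included 4 Schlafen genes, which restrain growth and viral translation: Slfn1 (2.77-fold), Slfn2 (2.24-fold), Slfn5 (2.19-fold) and Slfn8 (3.32-fold). Slfn8 had 203 in exFoxp3Th17, 61.4 in Th17, 102 in Treg and 335 in Th0. Ifit1bl1, a relative of Ifit1, had 67.1 in exFoxp3Th17, 9.99 in Th17, 54.7 in Treg and 263 in Th0. It was at least 21.7-fold lower in Th17 than in Th0, as the 3 Ifit members were lower there, and at least 5.54-fold higher in exFoxp3Th17 than in Th17. In exFoxp3Th17 against Treg this list had 7 higher (14.9%, against 7.3% of all genes) and 8 lower (17.0%, against 6.43%). In Treg against Th0 it had 5 higher (10.6%, against 3.59% of all genes) and 8 lower (17.0%, against 3.2%). Of the 47, 46 lay above the floor on some array. Over the 10178 genes with a mean log2 signal above the floor, the shares called were larger. Higher and lower, they were 8.86% and 7.68% in Th17 against Th0 and 8.02% and 7.88% in exFoxp3Th17 against Th17. They were 12.3% and 10.9% in exFoxp3Th17 against Treg, and 5.87% and 5.51% in Treg against Th0.

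Guanylate-binding proteins and immunity-related GTPases, which are induced mainly by interferon-gamma, differed among themselves. Gbp2 had 509 in exFoxp3Th17, 1298 in Th17, 1370.2 in Treg and 104 in Th0, so that it was 12.5-fold higher in Th17 and 13.2-fold higher in Treg than in Th0. Gbp3 had 73.8 in exFoxp3Th17, 89.5 in Th17, 1027 in Treg and 57.9 in Th0, with Treg alone high. Igtp had 369 in exFoxp3Th17, 1308 in Th17, 3292 in Treg and 885 in Th0. Irgm1 had 257 in exFoxp3Th17, 179 in Th17, 431 in Treg and 166 in Th0, and was 2.6-fold higher in Treg than in Th0. Ifi47 had 1924 in exFoxp3Th17, 1645 in Th17, 1953 in Treg and 1254 in Th0 and was called in no comparison. Gbp2 was high on the same arrays as Irf8, Th17 and Treg, and low in Th0.

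Some values bear on the arrays as wholes. The gate showed in Foxp3 (8.03 in exFoxp3Th17, 6.20 in Th17, 585 in Treg and 4.25 in Th0), while Il17a lay under the floor on all 4 arrays. All 9 measured CD4 T cell markers were above the floor on every array. Of the 2 CD8 T cell markers, Cd8b1 was as well, with 64.9 in exFoxp3Th17, 83.5 in Th17, 51.7 in Treg and 64.6 in Th0. Cd4 itself had 98.1, 81.2, 48.3 and 109.6 in the same order. The other, Cd8a, lay between 11.1 and 14.3. Whether CD8 T cells were present was not tested. Xist was high in exFoxp3Th17 alone and 3 Y-linked genes on the other arrays alone, so in every comparison with exFoxp3Th17 origin or culture cannot be told apart from this difference in sex-linked transcripts. Of plasmacytoid dendritic cell markers, the main producers of interferon-alpha, 4 of 6 were above the floor somewhere, with summed signals of 314.8 in exFoxp3Th17, 269.8 in Th17, 164.2 in Treg and 136.3 in Th0, and Siglech was under the floor on all 4. Monocyte and macrophage markers, 4 of 7 above the floor somewhere, summed to 43.3 in exFoxp3Th17, 54.6 in Th17, 51.9 in Treg and 107.4 in Th0. Lyz2, Cd14 and Itgam were under the floor on all 4 arrays, and Csf1r was above it on all 4 (12.6 to 23.4). Adgre1 was above it in Treg (12.8) and Th0 (32.2), Fcgr3 in Th0 alone (21.9) and Cd68 in Th17 alone (13.7). Conventional dendritic cell markers, 3 of 5 above the floor somewhere, summed to 16.9 in exFoxp3Th17, 34.5 in Th17, 31.7 in Treg and 58.1 in Th0. The marker sums include values under the floor, which have no order among arrays. The part of dendritic cells, monocytes and macrophages in the members' levels was not tested. No neutrophil marker of 4 lay above the floor. B cell markers (2 of 5 above the floor somewhere) summed to 26.1 to 71.6, and NK cell markers (2 of 4) to 15.1 to 174.5, the highest being Th17 through Klre1. The 7 housekeeping genes were called in no comparison.

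More than 1 probe set was present for 18 members, which gives a check within arrays but not between samples. In exFoxp3Th17 against Treg, 6 called members had 9 other probe sets above the floor, and 8 of the 9 went the same way, 4 of them by 2-fold or more. In Th17 against Th0 these numbers were 3 members, 3 probe sets, 3 the same way and 2 by 2-fold. In Treg against Th0, 4 members had 5 others, all 5 the same way and 4 by 2-fold, and in exFoxp3Th17 against Th17, 3 members had 5, all 5 the same way and 2 by 2-fold. Where a chosen probe set was within 2-fold, other probe sets passed it in 13 cases, which belong to 8 members, and all 13 lay below 0. Over all genes with 2 probe sets above the floor, the log2 ratios of the pair differed with a robust SD of 0.38 to 0.45, so calls just past 2-fold, such as Ifih1 and Isg20 in Th17 against Th0, lie within that spread of the threshold.

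**Figure D5:**
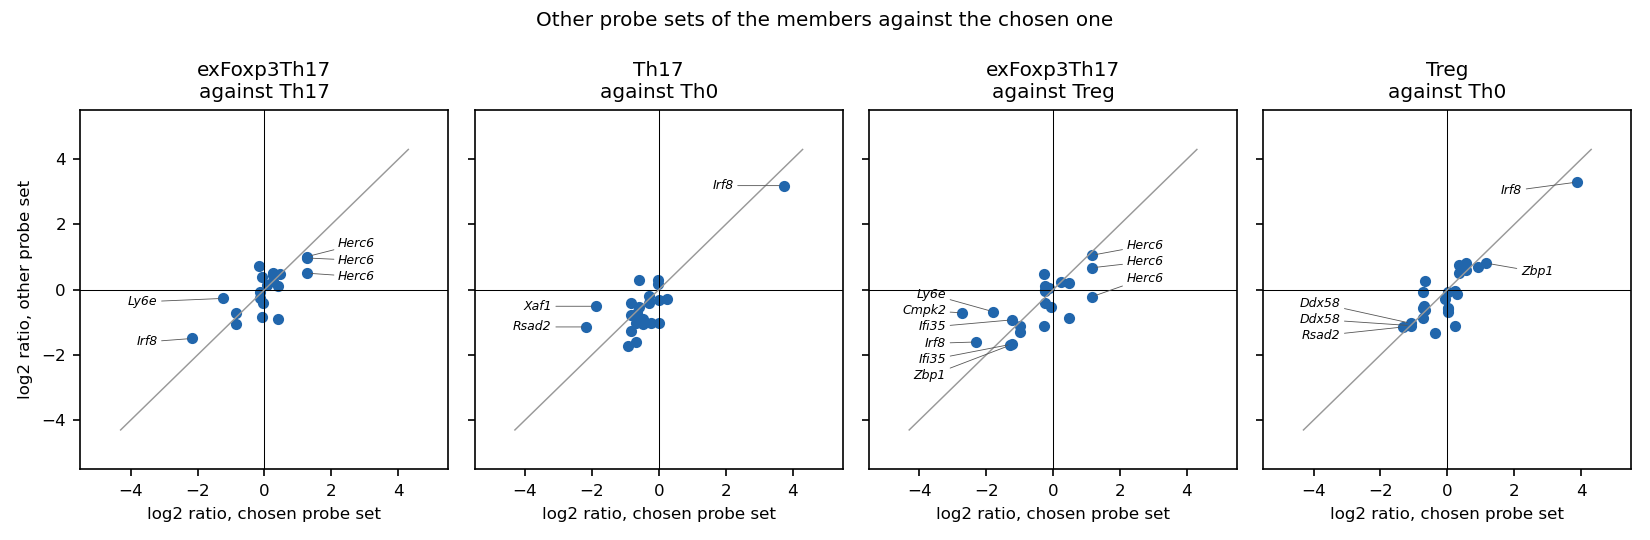
Log2 ratio of each further probe set of a member (vertical axis) against that of the chosen probe set (horizontal axis) in the 4 comparisons, with the diagonal of equal ratios and called members named. Nearly all named points have the same sign on both axes, the exception being 1 Herc6 probe set at -0.22 in exFoxp3Th17 against Treg.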

How the data were processed

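Total RNA of 4 sorted mouse CD4 T cell populations, 1 array each, was labelled with biotin and hybridised to Affymetrix arrays, per the labels. The deposited values are linear signal intensities that the authors computed by MAS5 (per the submitters' processing notes). No version of it is given in the sources used. The deposited intensities were used as scaled: after leaving out 2% of probe sets at each end, the mean was 100.0 on every array. Scanner files were not used here, and the number of arrays limits the precision.

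The table holds 45101 probe sets, 64 of them controls. Names came from the platform annotation, updated through a RefSeq gene table: 34945 probe sets have 1 symbol, 932 several and 9160 none here, and those with several named no gene. The share of probe sets over the floor was 48.7% to 51.2% per array. Ratios are differences of log2 signals after setting values under the floor of 12.1 to it; a fold against such a value is a lower bound, written "at least". Calls are differences of 2-fold or more, and 1 array per population allows no test. The script that makes the calls was first tested on simulated data. Promoter windows came from RefSeq (GRCm38.p6). Python 3.11.15, numpy 2.4.6, pandas 2.3.3 and matplotlib 3.10.9 were used.

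The members and lists were chosen with earlier results of these data known. Members called in at least 1 comparison were given in full and the others by their range; list genes could be named when called, though not all called ones are, and besides them Ifnar1, Ifnar2, Jak1, Tyk2, Stat2, Ifnb1, Ifng, Socs1, Foxp3 and Il17a. A gene that the rule always names is not reported here. Other uncalled list genes named in the text were chosen after their values were seen. The alternatives were 11 settings of floor, threshold, scaling and probe set choice.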

Additional observations from a re-analysis of the deposited data

Results flagged for a closer look

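Irf8 and Ifih1 went in opposite directions in the 2 comparisons that set Th17 conditions against another culture, in cells of Foxp3+ and of naive origin. Irf8 had a log2 ratio of -2.30 in exFoxp3Th17 against Treg and 3.73 in Th17 against Th0. Ifih1 had a log2 ratio of 1.52 in exFoxp3Th17 against Treg and -1.01 in Th17 against Th0. Each ratio comes from 1 array against 1 array, so the difference between the comparisons was not tested. They also differ in their other culture and in sex-linked transcripts, and these cannot be told apart from origin. Among the 10178 genes with a mean above the floor, 154 were higher in Th17 than in Th0 and lower in exFoxp3Th17 than in Treg, as Irf8 was, and 137 went as Ifih1 did.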

How the results depend on the processing

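No paired analysis was possible because each population has 1 array. The members' median log2 ratio ranged from -0.84 to -0.34 in Th17 against Th0 over the settings run; in the other comparisons it changed sign under none of them, though it reached 0 in exFoxp3Th17 against Th17 and in Treg against Th0. Counts of calls moved by over 1.5 times most often with the second brightest probe set and with the fold threshold. Shares in brackets are those of all genes under the same setting. In Th17 against Th0, 13 members were lower; there were 5 at 4 times the floor (2.66%) and 23 at 1.5-fold (11.1%), with 2 higher at 1.5-fold (9.97%). In Treg against Th0, 8 were lower and 4 higher; lower calls numbered 5 when the floor served as a pseudocount (2.27%), 3 at 4 times the floor (1.87%), 5 with equal array medians (2.61%), 2 at 3-fold (0.929%) and 14 at 1.5-fold (8.59%), and higher calls 1 at 3-fold (1.65%) and 7 at 1.5-fold (7.74%). In exFoxp3Th17 against Treg, higher calls numbered 1 when a gene's probe sets were averaged (5.24%) and 0 at 3-fold (3.05%), with 5 lower at 3-fold (2.96%). In exFoxp3Th17 against Th17, higher calls numbered 5 at 0.5 times the floor (6.55%), 1 at 3-fold (1.67%) and 8 at 1.5-fold (11.7%), with 5 lower at 1.5-fold (9.55%). The second brightest probe set exists for 18 members only. There 0 were higher (4.68%) and 1 lower (4.31%) in exFoxp3Th17 against Th17, 5 lower (5.23%) in Th17 against Th0, 0 higher (6.6%) and 4 lower (5.86%) in exFoxp3Th17 against Treg, 1 higher (2.82%) and 3 lower (3.47%) in Treg against Th0, and 0 lower (0.555%) on both arrays from Th17 conditions. By that probe set Herc6 reversed, at -0.22 in exFoxp3Th17 against Treg. Apart from these settings' own construction, the cause was not tested. The log2 ratios of the 21 members called in any comparison were followed under all settings, in every comparison and so with their uncalled ratios. Of these, 782 kept their direction and side of the threshold, 72 fell under it, 29 passed it and 1 reversed. Ratios uncalled throughout count among the 782, so that number is not one of calls kept. At 3-fold alone, 22 fell under the threshold. Array medians over probe sets above the floor differed by 0.087 on the log2 scale at most. Precision is limited by 1 array per population, and members close to the floor, such as the Oas and Mx genes, allow only bounds.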

Other observations

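Isg15, the ubiquitin-like protein that gives its system its name, is read only by a probe set that the annotation gives to Isg15 and Gm9706 together. That probe set had 40.7 in exFoxp3Th17, 28.7 in Th17, 48.2 in Treg and 108 in Th0, so Th0 was the high array, with log2 ratios of -1.92 in Th17 against Th0 and -1.17 in Treg against Th0. The share of the signal that belongs to Isg15 is unknown.

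Mov10, an RNA helicase that restricts retroviruses, ran against most of the interferon-induced genes outside the members. It had 19.9 in exFoxp3Th17, 116 in Th17, 89.2 in Treg and 44.3 in Th0, so it was 5.86-fold lower in exFoxp3Th17 than in Th17 and 2.63-fold higher in Th17 than in Th0. Psmb9, an inducible subunit of the immunoproteasome, had 700.2 in exFoxp3Th17, 726 in Th17, 1746 in Treg and 961 in Th0, with Treg the highest array, as it was for Tap1. Tcf4, among the plasmacytoid dendritic cell markers, had 183 in exFoxp3Th17, 179.9 in Th17, 21.6 in Treg and 24.3 in Th0, so it makes up most of the difference in that list's summed signal between the arrays from Th17 conditions and the others. Between exFoxp3Th17 and Th17 the summed signal differed mainly by Pacsin1, at 50.03 in exFoxp3Th17 and 14.0 in Th17.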
